A study of Mus musculus with 30 samples.

Results

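The mitochondrial ribosomal proteins are the proteins of the ribosome that works inside mitochondria. They were taken here as every gene of the deposited table whose symbol begins with Mrpl or Mrps and a number, without pseudogenes. Of 11249 genes in the table, 77 were members. The symbols of 79 genes matched, and 2 of them were pseudogenes. Mrpl53 was not analysed here. By their place in the ribosome 50 members belong to the large subunit and 26 to the small subunit. Mrps30 and Mrps18a carry a small subunit name but sit in the large subunit, and were counted there. Mrps36 carries the family name but is known as a component of the 2-oxoglutarate dehydrogenase complex, so it was counted in neither subunit. Mrps36 also has pseudogenes with which reads could be shared, and its values are uncertain for that reason. By origin, 46 members have a homologue in the bacterial ribosome and 30 are specific to mitochondria.

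The mitochondrial genome encodes a small set of respiratory chain subunits and the RNAs needed to make them, but none of the mammalian ribosomal proteins. Those proteins are encoded in the nucleus, made in the cytosol and imported, so the mitochondrial ribosome needs the output of both genomes. Skeletal muscle is rich in mitochondria, and its oxidative capacity is known to depend on nerve activity and use.

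Messenger RNA was measured by stranded polyA sequencing of the gastrocnemius, a hind limb muscle, and the triceps brachii, a forelimb muscle, of male mice 3 days after surgery. The groups were sham surgery, transection of the spinal cord at a high thoracic level (T3) and transection at a low thoracic level (T9), and the design compares the levels of injury in each muscle. Each gastrocnemius group had 4 libraries and each triceps group had 6. The labels name no strain, age or genotype. By the numbers in the library descriptions, 12 mice gave a library of each muscle, 24 libraries in all. Both muscles were sampled as whole tissue, so fewer cells of a type and less RNA per cell cannot be told apart.

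Libraries held 13.3e6 to 23.4e6 reads in genes, except 1 triceps T3 library with 88.8e6. Muscle fibre markers, among them Acta1 and Ckm, summed to 91992 to 164052 CPM (counts of reads per 1000000) in every library, and none was at 0 reads. Macrophage markers, of which 7 of 10 were in the table, summed to 971.7 CPM in 1 triceps sham library and to at most 73.5 CPM in all others. Some markers of fibres and of other cell types stand below beside the comparisons, but not every marker list is given for every comparison. Libraries also differed along transcript length. Deviations of genes from their mean correlated with transcript length at Spearman rho of -0.61 in 1 triceps T3 library and up to 0.54 in a triceps T9 library, a description across genes. Member transcripts are short, with a median of 1316 bases against 2911 for all genes. In each group that held libraries with rho under -0.4, the highest summed level of the members was in 1 of those libraries. The part of RNA quality or library preparation in it was not tested.

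Promoter sequences of 4 members are shown because they carry the family's common upstream motifs or belong to the members described first. They come from RefSeq (build GRCm38.p6), each on the gene's own strand, with motif matches in capitals. Mrps2, which rose in 3 comparisons, has no match in the 150 bases shown (chr2:28467916-28468065, plus strand). Mrpl12, which fell in the gastrocnemius, has an NRF1 match on the opposite strand (chr11:120484463-120484612, plus strand). Mrpl34, whose T9 difference was unlike in the 2 muscles, has an ETS match (chr8:71464776-71464925, plus strand). Mrps12 has an SP1 match on the opposite strand and 3 CCAAT matches in the 150 bases shown of a promoter it shares with Sars2 (chr7:28741822-28741971, minus strand). The longer window searched below also holds an ETS and a YY1 match for Mrps12, outside the bases shown.
Mrps2: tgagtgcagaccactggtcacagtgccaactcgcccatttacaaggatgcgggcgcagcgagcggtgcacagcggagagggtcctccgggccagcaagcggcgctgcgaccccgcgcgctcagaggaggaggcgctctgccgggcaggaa
Mrpl12: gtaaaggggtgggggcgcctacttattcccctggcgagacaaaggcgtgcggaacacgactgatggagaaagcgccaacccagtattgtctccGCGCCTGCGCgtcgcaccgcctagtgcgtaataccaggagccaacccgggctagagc
Mrpl34: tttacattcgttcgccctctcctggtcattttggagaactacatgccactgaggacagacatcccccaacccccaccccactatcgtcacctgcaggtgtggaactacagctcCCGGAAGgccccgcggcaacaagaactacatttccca
Mrps12: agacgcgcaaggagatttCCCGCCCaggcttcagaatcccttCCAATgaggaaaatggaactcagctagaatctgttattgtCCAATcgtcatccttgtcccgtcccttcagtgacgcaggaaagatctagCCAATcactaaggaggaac

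Motifs were searched on both strands from 250 bases before to 50 bases after each start, in the 68 members with a RefSeq promoter. NRF1, the nuclear respiratory factor known for genes of mitochondrial proteins, was searched as GCGCA, any base and GCGC, and matched in 13 members (19.1%), against 12.5% of 8375 genes of the table and 4.60% of all 32851 promoters. The ETS motif CCGGAAG, bound by factors that include NRF2, matched in 25 members (36.8%), against 21.4% of the table's genes and 8.86% of all promoters. YY1, searched as AAGATGGC, matched in 12 members (17.6%), against 5.81% and 2.75%. The SP1 motif GGGCGGG was matched in 42.6% of members and 53.2% of the table's genes, CCAAT in 38.2% and 43.1%, and the E-box CACGTG in 7.35% and 12.3%. A match describes letters in this window and is not a bound site. In the gastrocnemius after T9, members with and without a match had median log2 changes of -0.21 and -0.03 for ETS, -0.10 and -0.09 for NRF1, and 0.06 and -0.13 for YY1. They were -0.21 and -0.07 for SP1, -0.08 and -0.13 for CCAAT and -0.07 and -0.12 for the E-box. After T3 the ETS medians were -0.13 and -0.08.

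A divergent neighbour, a gene on the other strand that starts within 1000 bases, was found for 18 of 77 members (23.4%), against 10.8% of the 10282 protein-coding genes of the table. Mrps12 starts 172 bases from Sars2, the mitochondrial seryl-tRNA synthetase, and Mrpl49 starts 59 bases from Fau, which encodes a cytosolic ribosomal protein. Mrps18b starts 45 bases from Ppp1r10, a regulator of a nuclear phosphatase. In the gastrocnemius after T9 the log2 change was 0.54 for Mrps18b and 1.27 for Ppp1r10. For Mrps12 and Sars2 it was 0.12 and -0.10.

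Members differed widely in level. On the scale of reads per kilobase of transcript per 1000000 reads (RPKM), the lowest and the highest member in gastrocnemius sham differed 78.8-fold, and the median member stood at 25.7. Mrps21, the homologue of bacterial S21, was the highest at 327 ± 213 (SD, n = 4), followed by Mrpl42 at 284 ± 96.5, Mrpl30 at 141 ± 72.3 and the stalk protein Mrpl12 at 135 ± 80.8. These neighbours do not differ beyond their spread. The lowest were Mrpl19 at 4.15 ± 0.34, Mrps25 at 5.14 ± 1.79, Mrps35 at 5.73 ± 1.74 and Mrps17 at 6.14 ± 0.48, whose ranges of 1 SD overlap except that of Mrpl19 with Mrps17. The order was much the same in every group, with rank correlations between pairs of groups of 0.931 to 0.995 over the 77 members, in libraries that share their genes' lengths. Mrps21, Mrpl42, Mrpl30, Mrpl14 and Mrpl23 were among the 10 highest in all 6 groups. In log2 CPM, 76 of the 77 members were above the median of all genes.

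**Figure D1:**
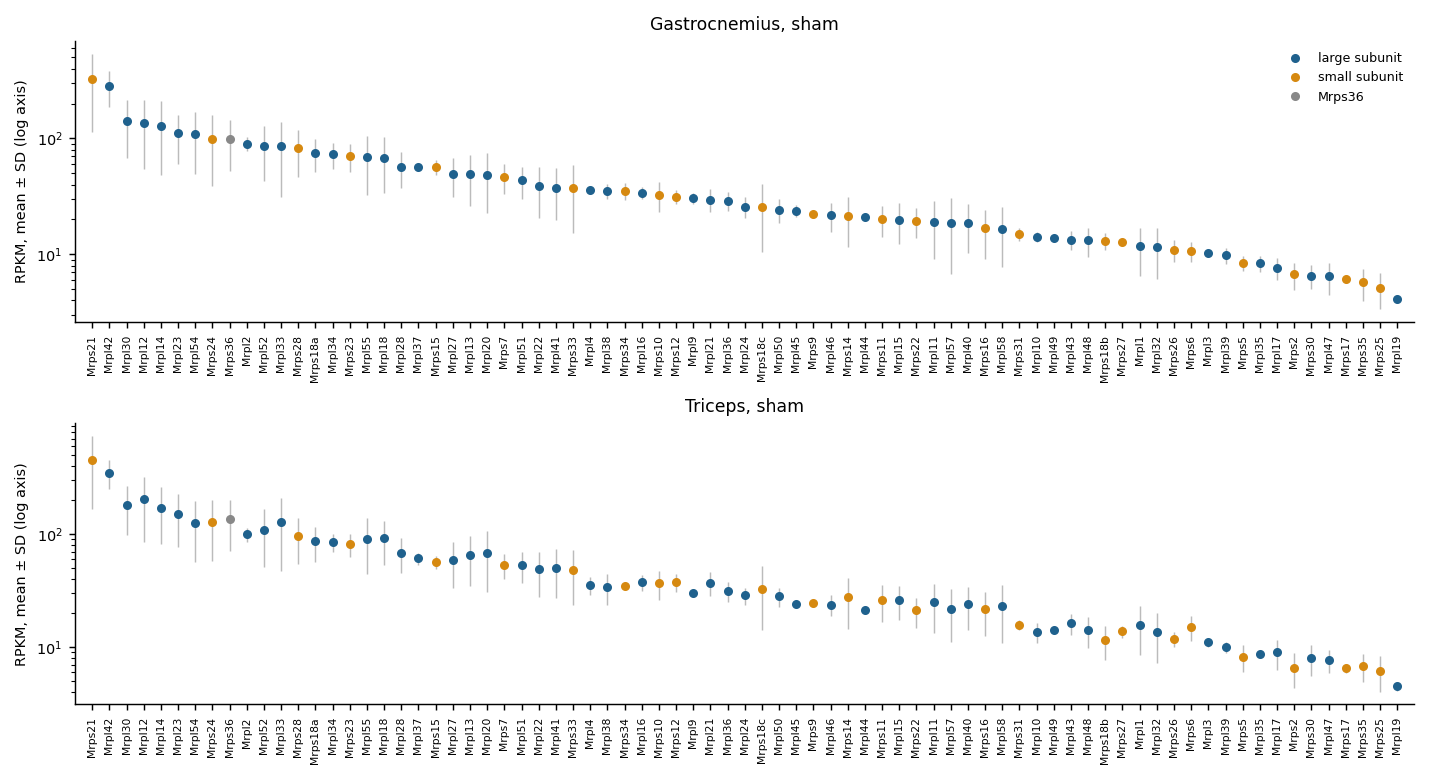
Level of each of the 77 members in sham muscle, as mean RPKM ± SD (log axis), in 4 gastrocnemius libraries (top) and 6 triceps libraries (bottom), ordered by the gastrocnemius; lower bars are drawn to at most 95% of the mean. Mrps21 and Mrpl42 lead in both muscles and Mrpl19 is last in both.

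In the gastrocnemius, whose nerves leave the cord below both injuries, a minority of the members changed. More of them fell than rose in the main fit, but not under every alternative. After T3, 13 members fell and 5 rose (limma, adjusted p under 0.05 over all genes), out of 77 tested. That is 16.9% lower and 6.49% higher, where 6.65% of all genes tested were lower and 27.1% were higher. After T9, 10 members fell and 4 rose, 12.99% and 5.19%, where 5.67% of all genes were lower and 37.6% higher. The median change of the members was -0.13 (log2) in both comparisons, while that of all genes was 0.27 after T3 and 0.40 after T9. These shifts of all genes are removed by median centring of each library, which left 24 lower and 1 higher after T3 and 20 lower and 0 higher after T9. Of all genes, centring called 1627 lower and 1641 higher after T3 and 1397 lower and 1247 higher after T9. Endothelial markers, all 6 in the table, had medians of 0.40 after T3 and 0.59 after T9, with 0 and 1 called higher. Schwann cell markers, 5 of 6 in the table, had a median of 0.74 after T9 with 1 called higher, and summed to 150.2 to 198.3 CPM against 68.8 to 250.3 CPM in sham. Fibroblast markers had 2 of 6 called lower after T3, with a median of -0.55, and macrophage markers 3 of 7 called higher after T9, with a median of -0.06. Muscle fibre markers, all 10 in the table, had 3 called lower and 1 higher after T3, with a median of -0.25. After T9 they had 3 lower and 0 higher, with a median of -0.20. The part of these cell types in the members' changes was not tested. Without the 4 libraries of lowest median, of which 1 is a gastrocnemius sham library, 10 members fell and 6 rose after T3, and 4 fell and 4 rose after T9. With the library median as a covariate 1 fell and 6 rose after T3, and 0 fell and 6 rose after T9. Of all genes, that fit called 888 lower and 1191 higher, and 543 lower and 845 higher. The direction of the members as a whole thus depends on the alternative chosen. With median centring more fell than rose, and with this covariate more rose than fell. The library median (log2) itself ran from 3.66 to 4.06 in sham. It ran from 4.05 to 4.26 after T3 and from 4.27 to 4.33 after T9. The covariate and the injury are therefore hard to tell apart in that fit.

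**Figure D2:**
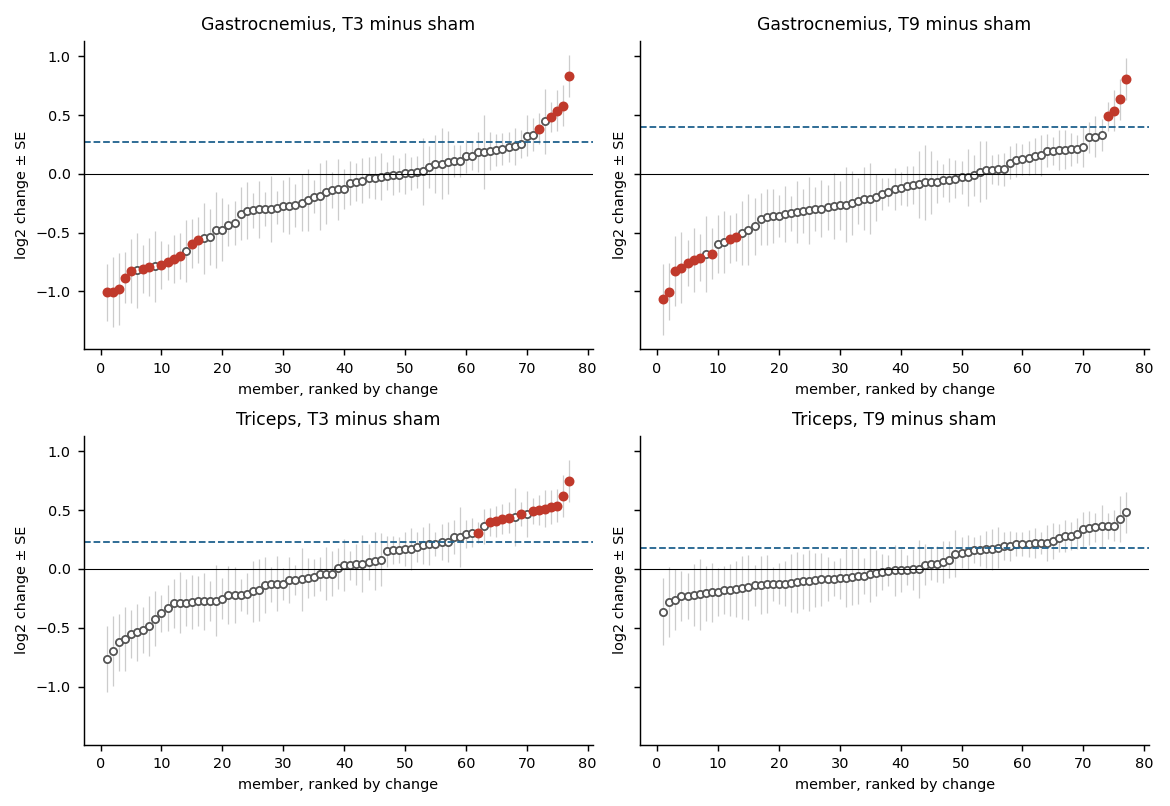
Log2 change ± SE of each member against sham, ranked within each comparison; filled points passed adjusted p under 0.05, the dashed line is the median change of all genes tested. Of 77 members, 18 passed in the gastrocnemius after T3, 14 after T9, 13 in the triceps after T3 and 0 in the triceps after T9.

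The members that rose in the gastrocnemius were few and mostly shared by the injuries, which were compared with the same sham libraries. Mrps2, the homologue of bacterial S2 where head and body of the small subunit meet, stood at 11.3, 18.8, 14.9 and 10.9 CPM in sham. It stood at 20.5, 27.05, 25.8 and 24.3 CPM after T3 and at 24.6, 20.9, 23.8 and 26.4 CPM after T9. Every injured library was above every sham library. Sham replicates 1 and 4 were the lowest, and in them deviations of genes fell with transcript length at rho -0.46 and -0.52. Sham replicate 2, at 18.8 CPM, lay near the lowest injured libraries, at 20.5 and 20.9 CPM. The log2 change was 0.83 ± 0.18 (SE, adjusted p = 0.0039) after T3 and 0.81 ± 0.18 (adjusted p = 0.0043) after T9. Mrps18b, one of the mammalian relatives of bacterial S18, had 15.5, 14.6, 15.7 and 10.6 CPM in sham, 16.9, 25.6, 22.4 and 19.4 CPM after T3, and 19.4, 20.0, 18.7 and 23.2 CPM after T9. Its sham and injured groups did not overlap, and it rose by 0.58 ± 0.17 (adjusted p = 0.020) and 0.54 ± 0.17 (adjusted p = 0.024). Its lowest sham library, at 10.6 CPM, was replicate 4. Mrps30, a large subunit protein specific to mitochondria, was at 23.8, 16.1, 19.2 and 27.5 CPM in sham and at 34.1, 33.6, 28.1 and 36.7 CPM after T9. Its T9 libraries were all above the sham libraries, and it rose by 0.64 ± 0.17 (adjusted p = 0.012), and by 0.54 ± 0.17 (adjusted p = 0.030) after T3, where 1 library lay within the sham range. Mrpl10, which anchors the stalk of the large subunit, rose by 0.48 ± 0.13 after T3 and 0.49 ± 0.13 after T9. Mrpl38, at the central protuberance of the large subunit, rose by 0.38 ± 0.13 (adjusted p = 0.037) after T3, and its T9 value was 0.31 ± 0.13 (adjusted p = 0.068). With median centring or quantile normalization, Mrps2 alone of these 5 was still called, and only after T3.

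The members that fell included Mrpl12, the stalk protein that contacts translation factors. Its sham libraries held 187, 100, 99.8 and 325 CPM, against 68.8, 96.2, 79.1 and 76.96 CPM after T3 and 92.3, 69.6, 62.7 and 78.0 CPM after T9. Every injured library was below every sham library, but sham replicates 1 and 4 stood far above the other two. The change was -0.98 ± 0.31 (adjusted p = 0.025) after T3 and -1.07 ± 0.31 (adjusted p = 0.014) after T9. Mrps24, the homologue of bacterial S3 at the entry of the mRNA channel, held 103, 53.0, 58.0 and 183 CPM in sham and 39.4, 45.6, 43.8 and 45.4 CPM after T3, a change of -1.005 ± 0.30 (adjusted p = 0.020). After T9 it changed by -0.83 ± 0.30 (adjusted p = 0.038), and its T9 replicate 1, at 57.6 CPM, lay within the sham range. Sham replicates 1 and 4 were again the highest, and in those libraries deviations fell with transcript length at rho -0.46 and -0.52. In sham replicates 2 and 3 rho was 0.29 and 0.25.

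Mrpl19, a homologue of bacterial L19 that contacts the small subunit, was even across sham libraries at 23.2, 20.0, 19.4 and 20.5 CPM. It stood at 9.96, 11.4, 14.8 and 13.6 CPM after T3, all below the sham range, and fell by 0.75 ± 0.15 (adjusted p = 0.0026). Alone among the 18 members called after T3, it passed under all 12 alternatives and without each of the 8 libraries compared. After T9 it held 17.5, 17.7, 15.3 and 15.2 CPM and its change was -0.34 ± 0.15 (adjusted p = 0.085). Mrps11, the homologue of bacterial S11 near the mRNA exit, fell by 0.88 ± 0.22 after T3 and by 0.68 ± 0.22 after T9. Mrps36 fell by 1.01 ± 0.24 and 1.003 ± 0.24, from 69.8, 43.7, 47.7 and 115 CPM in sham to 27.3, 33.4, 33.2 and 33.7 CPM after T3.

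Mrpl34, a short protein within the large subunit, had 47.8, 36.8, 33.7 and 58.8 CPM in sham, 21.9, 33.0, 26.6 and 25.97 CPM after T3 and 32.5, 25.4, 23.2 and 22.2 CPM after T9. No injured library reached the sham range, and it fell by 0.70 ± 0.20 (adjusted p = 0.016) and 0.76 ± 0.20 (adjusted p = 0.0092). Mrpl18 of the central protuberance fell by 0.83 ± 0.27 after T3 and 0.73 ± 0.27 after T9. Mrpl42, specific to mitochondria, fell by 0.81 ± 0.20 (adjusted p = 0.0085) after T3 and by 0.71 ± 0.20 after T9. Mrps33, also specific to mitochondria, fell by 0.80 ± 0.30 after T9. Mrps22, a small subunit protein whose human counterpart is mutated in inherited mitochondrial disease, fell by 0.57 ± 0.19 (adjusted p = 0.038) after T3 and stood at -0.23 ± 0.19 (adjusted p = 0.34) after T9. The other members that fell after T3 were Mrpl13, Mrpl28, Mrpl47 and Mrps25, by 0.60 to 0.79, and Mrpl28 and Mrpl47 also fell after T9. The injuries shared 9 members called lower, of 13 and 10, and 4 called higher, of 5 and 4, against shared controls.

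**Figure D3:**
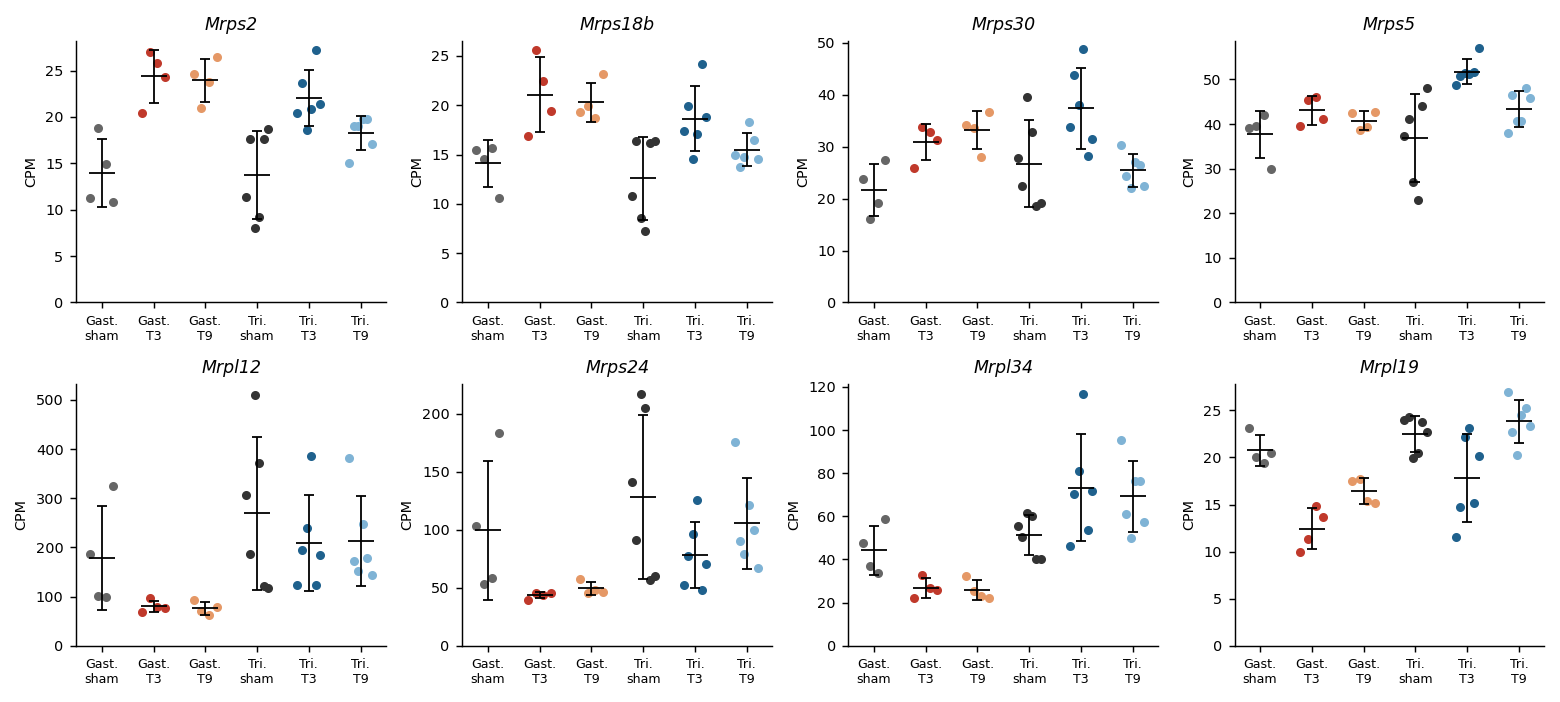
CPM of 8 members in each library (points) with the mean ± SD of each group. Mrps2 and Mrps18b are higher in every injured gastrocnemius library than in every sham library, Mrpl12 and Mrpl34 lower, and the high sham values of Mrpl12 and Mrps24 come from a few libraries.

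Members were also grouped by position in the ribosome, for the gastrocnemius after T3. Of all genes in that comparison 6.65% fell and 27.1% rose, with a median of 0.27. The counts of each group are few, and the groups were not compared by a test. Of the 3 stalk proteins 1 rose (Mrpl10), 1 fell (Mrpl12) and Mrpl11 stood at 0.10 ± 0.27. Of 8 proteins of the central protuberance 1 rose and 1 fell, while 7 of the 8 had a change below 0 and their median was -0.38. Of 8 at the exit of the peptide tunnel 1 fell, and their median was -0.20. Of 50 large subunit members 8 fell and 3 rose, with a median of -0.15, and of 26 small subunit members 4 fell and 2 rose, with a median of -0.05. Homologues of bacterial proteins had 9 of 46 lower and 2 higher, and proteins specific to mitochondria 3 of 30 lower and 3 higher. The summed level of the large subunit over that of the small subunit lay between 2.33 and 2.43 in all 12 gastrocnemius libraries. In the triceps it was 2.47 ± 0.03 in sham, 2.58 ± 0.10 after T3 and 2.56 ± 0.04 after T9 (SD, n = 6), values that were not tested.

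Transcript length went with the direction of change. Of the 39 members with transcripts of at most 1316 bases, 10 fell and 1 rose after T3 in the gastrocnemius, and of the 38 longer ones 3 fell and 4 rose. Of all genes 6.65% fell and 27.1% rose there. Across members the change correlated with length at Spearman rho 0.26, and across all genes at 0.28. In the triceps after T3 rho was 0.34 across members and 0.25 across all genes. Genes are not independent replicates, and all share the same libraries. With each library's trend on length and GC removed, an alternative added after the data were seen, 15 members fell and 13 rose in the gastrocnemius after T3. After T9, 9 fell and 20 rose. Of the 11248 genes tested in that fit, 947 fell and 3871 rose after T3, and 723 fell and 5207 rose after T9.

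**Figure D4:**
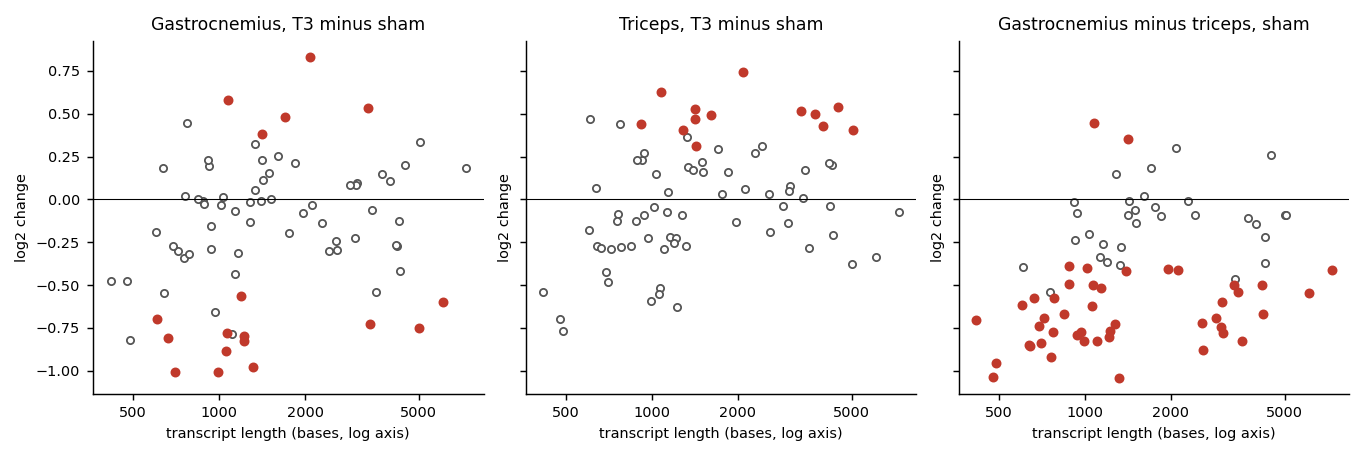
Log2 change of each member against the length of its transcript (log axis) in the gastrocnemius after T3, in the triceps after T3, and between muscles in sham; filled points passed adjusted p under 0.05. Members called lower after T3 in the gastrocnemius are mostly at or under the median length of 1316 bases.

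The members were also set beside the nuclear genes of the respiratory chain, since a ratio within a library does not depend on how that library was scaled. The ratio was chosen after values had been seen and was not tested. In gastrocnemius sham libraries there were 11.9, 11.6, 11.9 and 11.6 reads of members for every 100 reads of the 82 nuclear respiratory chain genes. After T3 there were 13.9, 15.2, 15.7 and 14.4, and after T9 16.6, 16.3, 16.6 and 17.1. No group overlapped another, and sham replicates 1 and 4, whose summed member levels of 4320 and 5740 CPM were far above the 2871 and 3013 CPM of replicates 2 and 3, had the same ratio as those. The ratio was 11.5 ± 0.487 in triceps sham, 12.7 ± 1.01 after T3 and 12.0 ± 0.451 after T9 (SD, n = 6), and these groups overlapped.

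The sums show which side of the ratio differed more. Members summed to 3986 ± 1339 CPM in gastrocnemius sham, 3226 ± 280 CPM after T3 and 3206 ± 281 CPM after T9 (SD, n = 4). Nuclear respiratory chain genes summed to 33955 ± 11584, 21776 ± 1251 and 19267 ± 1683 CPM. After T3, 41 of these 82 genes fell and 0 rose, with a median of -0.70 (log2), and after T9 66 fell and 0 rose, with a median of -0.83. Of all genes 6.65% fell and 27.1% rose after T3, and 5.67% fell and 37.6% rose after T9. After removal of the trend on length and GC, the median member minus the median respiratory chain gene was -2.82 ± 0.14 (log2) in sham, -2.44 ± 0.07 after T3 and -2.37 ± 0.04 after T9. Every injured gastrocnemius library stayed above every sham library on that scale. Cytosolic ribosomal proteins had 1 of 76 higher and 1 lower in each comparison, with medians of -0.19 and -0.07. Of the 13 mRNAs encoded in mitochondrial DNA, 7 fell after T3, with mt-Co1 at -0.45 ± 0.15, and 2 fell after T9. These 13 mRNAs, and not the nuclear genes, are what the mitochondrial ribosome translates. Their reads per member read ran from 20.4 to 31.8 in gastrocnemius sham. They ran from 21.7 to 24.5 after T3 and from 22.75 to 28.1 after T9, ranges that overlap. This ratio was not tested either.

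**Figure D5:**
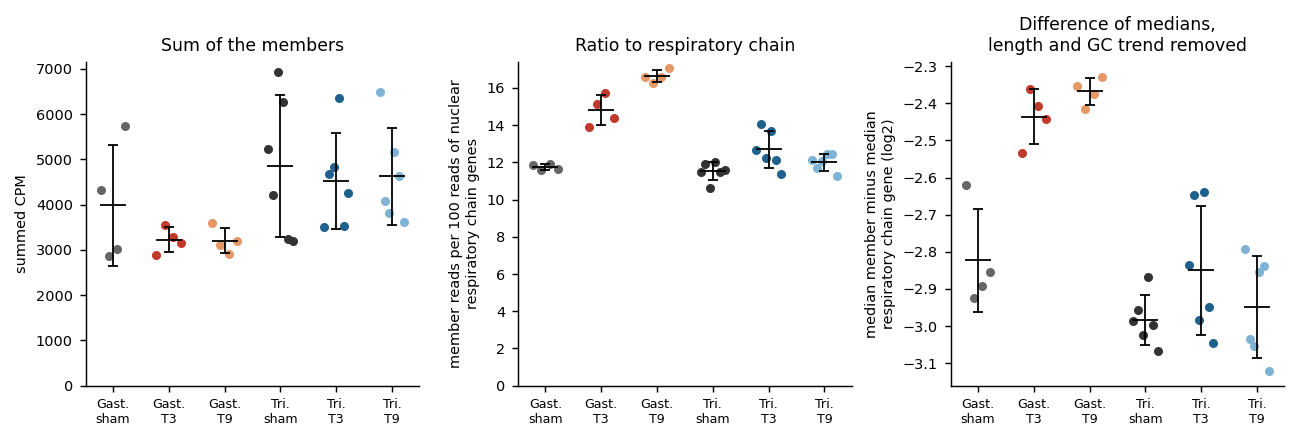
Summed CPM of the members (left), their reads per 100 reads of nuclear respiratory chain genes (middle), and the difference of the medians of both gene groups after removal of the length and GC trend (right, axis not from 0), for each library (points) with mean ± SD. The sums overlap between groups, while in the gastrocnemius the ratio runs from 11.6 to 11.9 in sham, 13.9 to 15.7 after T3 and 16.3 to 17.1 after T9.

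Between T3 and T9 themselves, no member differed in the gastrocnemius by limma (0 of 77, with 1 higher and 3 lower at an unadjusted p under 0.05), where 0.729% of all genes were higher after T3 and 0.898% lower. These shares are at adjusted p, and none was computed at an unadjusted p. With voom weights the count of members was 0 as well. Schwann cell markers had a median log2 change of -0.60, with 5 of 5 below 0. Fibroblast markers had a median of -0.51, with 6 of 6 below 0, and adipocyte markers -0.32, with 5 of 5 below 0. Of these, 0 were called, and the median of all genes was -0.11. Their part in the members' values was not tested.

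In the triceps, whose nerves leave the cord above both injuries, some members rose after T3, and none passed the test after T9. After T3, 13 of 77 rose and 0 fell, where 19% of all genes were higher and 4.32% lower. Members higher were 16.9%, near the share of all genes, and their median change was 0.01 against 0.23 for all genes. Median centring left 1 higher and 1 lower, quantile normalization 1 higher and 5 lower, and 9 rose without the 4 libraries of lowest median. With the libraries of label number 60 alone 5 members rose. Of all genes, centring called 1140 higher and 894 lower, and label number 60 alone 1045 and 202. Fibroblast markers had 3 of 6 called lower in this comparison, with a median of -1.10, and summed to 188.7 to 1130 CPM in sham and 133.8 to 318.0 CPM after T3. Macrophage markers had 1 of 7 called higher and a median of -0.63. Muscle fibre markers had 2 of 10 called lower and 0 higher, with a median of -0.09. Their sums had a median of 133096 CPM in sham and 105527 CPM after T3, with ranges that overlap. The part of any of these in the members' changes was not tested. The 6 libraries with label number 57, 2 in each group, were not fitted by themselves. After T9, 0 members passed in either direction by limma or with voom weights, where 0.00889% of all genes were higher and 0.0% lower. At an unadjusted p under 0.05, 12 members were higher and 0 lower. The share of all genes at that threshold was not computed, so nothing is read from this count. It was 1 higher with median centring and 35 higher with the library median as a covariate.

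Mrps2 also led in the triceps after T3, with a change of 0.75 ± 0.18 (adjusted p = 0.0061). Its 6 sham libraries ran from 8.06 to 18.7 CPM with a median of 14.5, and its T3 libraries from 18.6 to 27.2 CPM with a median of 21.1. The lowest sham values were those of replicates 3 and 4, where deviations on length had rho of -0.59 and -0.40. A single T3 library lay within the sham range. It passed under all 14 alternatives and without each of the 12 libraries compared. After T9 it stood at 0.48 ± 0.18 (adjusted p = 0.38). Mrps18b, Mrps30 and Mrpl38 rose after T3 in the triceps as they did in the gastrocnemius, by 0.62 ± 0.18, 0.51 ± 0.15 and 0.53 ± 0.14.

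The other triceps members that rose were not called in the gastrocnemius, although no member passed the test of a difference between muscles for T3. Mrps5, the homologue of bacterial S5 at the mRNA entry, ran from 22.9 to 48.0 CPM in sham (median 39.3) and from 48.7 to 56.96 CPM after T3 (median 51.3). The groups did not overlap, although the lowest T3 library exceeded the highest sham library by less than 1 CPM, and the change was 0.54 ± 0.14 (adjusted p = 0.0097). Mrps9, whose bacterial homologue reaches toward the tRNA sites, rose by 0.47 ± 0.10 (adjusted p = 0.0029), and Mrpl9 by 0.49 ± 0.11 (adjusted p = 0.0040). Mrpl3, a homologue of bacterial L3 near the peptidyl transferase centre, rose by 0.43 ± 0.13. Mrpl35 rose by 0.50 ± 0.13, Mrps34 by 0.44 ± 0.13, Mrpl4 by 0.41 ± 0.13, Mrps17 by 0.40 ± 0.12 and Mrpl44, which carries a domain related to ribonuclease III, by 0.31 ± 0.09. Of the 38 members with long transcripts 10 rose, and of the 39 with short ones 3, where 19% of all genes rose.

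T3 and T9 differed in the triceps for 1 member, Mrps30, at 0.54 ± 0.15 (adjusted p = 0.039), where 4.95% of all genes were higher after T3 and 2.65% lower. The call was lost with the replicate block (0 members), without the label number term (0 members), and without any of 10 of the 12 libraries compared.

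Whether an injury changed a member differently in the 2 muscles was tested in the 12 mice with both. For T3 no member differed by limma (0 of 77, with 0 higher and 6 lower at an unadjusted p under 0.05) nor with voom weights. At adjusted p 0.142% of all genes were higher in the gastrocnemius and 1.1% lower, and no share was computed at an unadjusted p. For T9, 1 member was higher and 1 lower, where 3.76% and 3.19% of all genes were. Mrps30 rose in the gastrocnemius and stood at -0.02 ± 0.15 in the triceps, a difference of 0.86 ± 0.20 (adjusted p = 0.020). Its triceps libraries ran from 18.5 to 39.6 CPM in sham (median 25.1) and from 21.9 to 30.4 CPM after T9 (median 25.4), ranges that overlap. Mrpl34 fell in the gastrocnemius and stood at 0.42 ± 0.20 (adjusted p = 0.47) in the triceps. Its difference in the mice with both muscles was -1.03 ± 0.26 (adjusted p = 0.034). Its triceps values ran from 40.2 to 61.4 CPM in sham (median 50.5) and from 50.1 to 95.2 CPM after T9 (median 68.6). For T3 the Mrpl34 difference was -1.09 ± 0.26 (adjusted p = 0.064). Both T9 calls were lost without the mouse block and with median centring. That of Mrps30 was lost also without any of 3 mice and that of Mrpl34 without any of 7 mice.

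In sham mice, 44 members were lower and 2 higher in the gastrocnemius than in the triceps, where 12.0% of all genes were lower and 26.8% higher. The members that differed most were Mrpl12 at -1.04 ± 0.30, Mrpl33 at -1.04 ± 0.25, Mrps21 at -0.96 ± 0.26 and Mrpl20 at -0.92 ± 0.24, and the higher ones were Mrps18b at 0.44 ± 0.16 and Mrpl38 at 0.35 ± 0.12. These calls rest on single animals. Without the mouse of triceps sham replicate 3, whose 2 muscles deviated in opposite ways (r = -0.753), the counts were 0 and 0. Calls over all genes then went from 3020 higher and 1354 lower to 67 and 29. The members' median change was -0.26 without that mouse and -0.49 with it. Without the mouse of replicate 2, 19 members were lower and 2 higher, and without the mouse block the counts were 0 and 0. In triceps sham replicate 3 Mrpl12 stood at 510 CPM and in replicate 6 at 118 CPM.

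Other parts of the mitochondrial translation system were described by lists. In the gastrocnemius 27.1% of all genes rose and 6.65% fell after T3, and 37.6% rose and 5.67% fell after T9. In the triceps after T3 19% rose and 4.32% fell. The counts of each list below are few, several are near those shares or under them, and nothing is read from them about a list. Ribosomal proteins known by other names (Dap3, Chchd1, Ptcd3, Aurkaip1 and Gadd45gip1) had 0 of 5 called in the gastrocnemius after either injury, and 1, Ptcd3, rose in the triceps after T3, by 0.42 ± 0.14. Of 25 assembly and rRNA modification factors, 3 rose and 2 fell after T3 and 9 rose and 0 fell after T9 in the gastrocnemius, and 5 rose and 0 fell in the triceps after T3. Rcc1l, an assembly factor, rose in all of these, by 0.78 ± 0.14, 0.59 ± 0.14 and 0.64 ± 0.17. Rpusd4, a pseudouridine synthase of mitochondrial RNA, rose by 0.67 ± 0.14 in the gastrocnemius after T9, and Noa1, a GTPase of small subunit assembly, by 0.68 ± 0.17.

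Of 13 translation factors, 1 rose and 0 fell in the gastrocnemius after T3, 1 rose and 1 fell after T9, and 4 rose and 0 fell in the triceps after T3. The 4 were Mrrf, a ribosome recycling factor (0.38 ± 0.10), Tufm, the elongation factor that delivers tRNAs (0.56 ± 0.15), Gfm1, the elongation factor that moves them on (0.79 ± 0.24), and Oxa1l, which inserts new proteins into the inner membrane (0.80 ± 0.22). Of 20 aminoacyl-tRNA synthetases and related amidotransferase genes, 2 rose and 1 fell after T3, 7 rose and 1 fell after T9, and 2 rose and 0 fell in the triceps after T3. Ears2, for glutamate, rose by 0.91 ± 0.18 in the gastrocnemius after T9, and Iars2, for isoleucine, rose by 0.90 ± 0.22 after T3. Of 11 genes of mitochondrial transcription and mRNA stability, 3 rose and 1 fell, 2 rose and 0 fell, and 3 rose and 0 fell in the same order. Tfb2m, which opens mitochondrial promoters, rose in each, by 0.43 ± 0.11, 0.44 ± 0.11 and 0.36 ± 0.13.

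Of 12 transcriptional regulators of mitochondrial genes, 5 rose and 2 fell in the gastrocnemius after T3, 5 rose and 4 fell after T9, and 5 rose and 0 fell in the triceps after T3. Nrf1, whose motif was searched above, rose in each, by 0.71 ± 0.15, 0.65 ± 0.15 and 0.60 ± 0.13. Myc rose by 2.18 ± 0.36 and 2.78 ± 0.36 in the gastrocnemius. Perm1, a muscle regulator of oxidative genes, fell by 3.67 ± 0.41 and Esrra, a nuclear receptor of the same programme, by 1.18 ± 0.18 after T9. In the triceps after T3, Esrra rose by 0.70 ± 0.14 and Ppargc1a, its coactivator, by 2.27 ± 0.31.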

How the data were processed

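Per the submitters' processing notes, the authors made the deposited log2 values with HISAT2 2.1.0, featureCounts, Subread 1.5.1 and limma on GRCm38; the annotation release was not stated. The values fit whole reads plus an offset of 0.5, scaled to CPM by each library's own total, for 100% of entries (tolerance 0.01 reads). Each gene that reached a log2 value of 0 or more in 4 or more libraries was tested by limma 3.58.1 under R 4.3.3 (variance trend, two-sided), with Benjamini-Hochberg adjustment over every gene tested and a threshold of 0.05. The procedure was tested on simulated data. A count test was foreseen only for counts. The 12 gastrocnemius libraries formed a fit, and the 18 triceps libraries another with a term for the first number in the description (57 or 60). Tests between muscles used the mouse as a block. The mouse was inferred from the second number, and its libraries deviated together in 11 of 12 mice (r above 0.1, mean 0.322). The exception was the mouse of triceps sham replicate 3 (r = -0.753), so its number may be wrong, and results between muscles are given also without it. Triceps libraries of differently numbered mice reached r of 0.84, so this measure does not settle the mouse. Each library of a group carries its own number, so by this reading the libraries of a group came from separate animals. The labels do not state it, so p-values measure the spread between these libraries, which may be in part technical. Lengths are those of principal transcripts of GENCODE on GRCm38.

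Members named are up to 6 per direction and comparison, by size of change among those called, then calls against the main direction, the 4 highest and lowest by RPKM, a panel of known roles, and up to 4 genes of each list. Other names, among them the remaining called members, were chosen after their values were seen. Members and lists were chosen with earlier results of these data known. Alternatives were other scalings, filters, a pseudocount, variance models, covariates, sets of libraries and blocks, leaving out each library and, added after seeing the data, removal of each library's trend on length and GC.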

Additional observations from a re-analysis of the deposited data

Results flagged for a closer look

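Of 78 groups of 4 or 6 libraries examined, for the levels of 12 members and for the summed level, 4 held a library far from the others, where chance alone flags about 1 in 20. Mrps36 stood at 27.3 CPM in gastrocnemius T3 replicate 1 and at 33.2 to 33.7 CPM in the other libraries of that group. Mrps11 stood at 16.93 CPM in gastrocnemius T9 replicate 1, above 11.6 to 11.9 CPM in the others. Mrps5 stood at 56.96 CPM in triceps T3 replicate 6, above 48.7 to 51.6 CPM. Mrps36 stood at 144.5 CPM in triceps T9 replicate 1, above 51.6 to 84.7 CPM, and that library is among the 4 of lowest median.

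For 2 members the T9 difference from sham was unlike in the 2 muscles by a test of that difference (limma, adjusted p under 0.05, mouse as a block). The log2 difference, gastrocnemius minus triceps, was 0.8576 for Mrps30 and -1.032 for Mrpl34. All 4 gastrocnemius T9 libraries were above all 4 sham libraries for Mrps30 and below them for Mrpl34.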

How the results depend on the processing

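Counts are members called higher and lower, beside 5 and 13 for T3 in the gastrocnemius, 4 and 10 for T9, and 13 and 0 in the triceps after T3. All genes are given in the same order, beside 3046 and 748, 4226 and 638, and 2138 and 486 in the main fits. The cause of a change was not tested. With median centring the members called were 1 and 24, 0 and 20, and 1 and 1. With quantile normalization they were 1 and 24, 0 and 23, and 1 and 5. Of all genes, centring called 1641 and 1627, 1247 and 1397, and 1140 and 894. Quantile normalization called 1674 and 1543, 1458 and 1260, and 1109 and 876. With the library median as a covariate the members called were 6 and 1, 6 and 0, and 33 and 0. With the length and GC trend removed they were 13 and 15, 20 and 9, and 22 and 6. The covariate called 1191 and 888, 845 and 543, and 1709 and 1151 of all genes. Removal of the trend called 3871 and 947, 5207 and 723, and 3036 and 671 of them. Fitted on only the groups compared, 1 and 7, 4 and 5, and 9 and 0 members were called. Of all genes, that fit called 1883 and 474, 3311 and 496, and 1636 and 368. Without the 4 libraries of lowest median 4 members fell in the gastrocnemius after T9, and with label number 60 only 5 members rose in the triceps after T3. Leaving out each library gave 2 to 6 and 6 to 22 for T3 and 3 to 5 and 4 to 17 for T9 in the gastrocnemius, and 8 to 16 and 0 to 5 in the triceps after T3. The extremes in the gastrocnemius came without sham replicate 1 (6 and 4 lower, and 503 and 439 of all genes). They came also without sham replicate 2 (22 and 17 lower, and 1009 and 770 of all genes). Fewer than the main counts were called after T9 also without sham replicate 4 or T9 replicate 2, 3 or 4 (4 lower each), and after T3 without T3 replicate 1 (8 lower), 2, 3 (2 higher each) or 4 (3 higher). In the triceps 8 rose without T3 replicate 2, and 5 fell without sham replicate 2 or T3 replicate 4, 2 without sham replicate 5 or T3 replicate 6 and 1 without sham replicate 6.

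Between T3 and T9, the main counts were 0 and 0 in the gastrocnemius. They were 0 and 1 with the median covariate, and 1 and 1 with only the groups compared and with the trend removed. In the triceps the main counts were 1 and 0. They were 0 and 0 with centring, quantile normalization, no label number term and label number 60 only, 7 and 1 with the median covariate, 6 and 5 with the trend removed, and 0 to 1 and 0 to 1 without each library. Of all genes, the triceps fit of T3 against T9 called 1255 and 957 with the covariate and 1041 and 517 with the trend removed. The main fit called 557 and 298 of them. Triceps T9 against sham gave 0 and 0 members under all alternatives run.

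Between muscles, the T3 difference (0 and 0) became 0 and 7 with the median covariate, 0 and 1 with the trend removed, 0 and 1 without sham mouse 4 (that of triceps sham replicate 3), and 0 and 0 to 1 without each mouse. The T9 difference (1 and 1) became 0 and 0 with centring and without the mouse block, 0 and 3 with quantile normalization, 14 and 3 with the covariate, 2 and 6 with the trend removed, 1 and 0 without the 4 libraries of lowest median, 1 and 4 without sham mouse 4, and 0 to 1 and 0 to 4 without each mouse. Of all genes, the T9 difference called 1745 and 1463 with the covariate and 1014 and 632 with the trend removed, beside 423 and 359. In sham (2 and 44), the member counts were 0 and 48 with centring, 0 and 49 with quantile normalization and 1 and 39 with no variance trend. They were 1 and 44 with voom weights, and 4 and 18 with the trend removed. They were 0 and 0 with the covariate, without the 4 libraries of lowest median, without the mouse block and without sham mouse 4. Without each mouse they were 0 to 2 and 0 to 46. Calls over all genes, 3020 and 1354 in the main fit, went to 177 and 131 with the covariate and to 67 and 29 without sham mouse 4.

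Of single members called within a muscle, 5 turned sign in the gastrocnemius after T9 with the median covariate, Mrpl12 (0.26), Mrpl18 (0.26), Mrpl28 (0.13), Mrps24 (0.50) and Mrps33 (0.42). Replicate numbers were not used to pair the groups. Same-numbered libraries deviated together at r above 0.1 in 1 of 4 gastrocnemius pairs for T3 and 2 of 4 for T9. In the triceps 4 of 6 did so after T3 and 4 of 6 after T9, with r of -0.34 to 0.65 and -0.63 to 0.84. These values do not settle whether the numbers pair the groups. With the replicate block the counts were 4 and 13, 4 and 7, and 11 and 0, and 0 and 0 for triceps T3 against T9. As to depth, 76 of the 77 members lie above the median level of all genes.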
